A study of Mus musculus with 6 samples.

Results

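Regulators of G protein signalling (RGS) and dual-specificity phosphatases (Dusp) are inhibitors that cells make to switch their own signalling off, and 8 of their genes were followed in mouse adrenal glands with and without chromogranin A. The genes were Rgs2, Rgs4, Rgs5, Rgs16, Rgs19, Dusp1, Dusp2 and Dusp6. They were read by all probe sets that the annotation of the array platform assigned to these symbols, which gave 13 probe sets out of 12422 that were no controls. The genes were picked with the differences between these same arrays known, so their levels and changes are given as descriptions with no p-value. Glands lacking chromogranin A, the product of Chga, were measured on 3 arrays and wild-type glands on 3 more. The glands came from knockout and wild-type mice that were all male and 12 weeks old. Each array was read as 1 animal. The labels give neither the genetic background of the strains nor the deleted part of Chga, and nothing in them limits the deletion to a tissue.

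RGS proteins speed up the hydrolysis of GTP on the alpha subunit of heterotrimeric G proteins, so that a receptor's signal ends sooner. The Dusp genes studied here encode MAP kinase phosphatases, which remove phosphate from both the threonine and the tyrosine of activated MAP kinases. In the adrenal, hormones such as ACTH and angiotensin act on the cortex, and acetylcholine and other transmitters on the chromaffin cells of the medulla, through pathways that these proteins dampen. Several of the genes are themselves switched on by the pathways that their products restrain.

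The sequences before the start sites of Rgs2, Dusp1 and Dusp6 are shown. Among the genes followed, these had a probe set on which knockout and wild-type arrays did not overlap. Each run is the 250 bases before the RefSeq start, read on the gene's strand 5′ to 3′ from the GRCm38.p6 assembly. Rgs2 lies at chr1:144004150-144004399 (minus strand), Dusp1 at chr17:26508473-26508722 (minus strand) and Dusp6 at chr10:99262981-99263230 (plus strand). Capitals mark matches to the motifs described after the sequences.
Rgs2: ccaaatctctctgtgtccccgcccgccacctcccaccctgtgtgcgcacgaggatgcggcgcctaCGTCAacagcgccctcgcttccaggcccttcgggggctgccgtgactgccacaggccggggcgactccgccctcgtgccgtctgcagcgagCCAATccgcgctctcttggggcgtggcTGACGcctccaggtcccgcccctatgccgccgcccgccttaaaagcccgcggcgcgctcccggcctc
Dusp1: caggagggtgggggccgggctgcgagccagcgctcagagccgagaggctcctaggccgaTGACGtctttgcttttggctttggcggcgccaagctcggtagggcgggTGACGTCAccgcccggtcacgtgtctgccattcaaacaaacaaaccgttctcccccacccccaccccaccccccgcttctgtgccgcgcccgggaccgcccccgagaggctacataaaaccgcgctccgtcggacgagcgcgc
Dusp6: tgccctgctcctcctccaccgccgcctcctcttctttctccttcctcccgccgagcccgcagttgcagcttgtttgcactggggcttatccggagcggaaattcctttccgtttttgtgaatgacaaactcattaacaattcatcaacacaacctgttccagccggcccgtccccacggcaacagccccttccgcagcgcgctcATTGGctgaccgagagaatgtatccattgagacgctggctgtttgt

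Motifs were searched on both strands in these windows and in all 32851 windows of the same length in the RefSeq table. The full cyclic AMP response element TGACGTCA was in the Dusp1 window, 143 to 136 bases before the start, and in 1.55% of all windows. Its core TGACG was in 17.8% of all windows. Rgs2 held 2 cores, starting 185 and 67 bases before its start, the first of them on the opposite strand. Dusp1 held 1 core 191 bases before the start, besides those that overlap its full element. Rgs4 held 2 cores as well, and the Dusp6 window none. The CCAAT box, present in 33.9% of all windows, was in the Rgs2, Rgs4, Rgs5, Rgs16 and Dusp6 windows. No match to the CArG box, to the AP-1 site TGANTCA or to the EGR1 site GCGTGGGCG was in the windows of the 8 genes, against 1.47%, 6.75% and 0.536% of all windows. The other form of the EGR1 site, GCGGGGGCG, was in the Dusp2 window and in 2.57% of all windows. The ETS core CCGGAA (12.0% of all windows) was in 1 window of Rgs19 and the TATA box TATAAA (12.4%) in that of Rgs4. Guanine and cytosine made up 72.4% of the Rgs2, 68.4% of the Dusp1 and 56.4% of the Dusp6 window, against 53.2% over all windows. A match describes these letters and does not show that a factor binds there.

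Chga was lost as labelled: its brighter probe set averaged 999 ± 170 on the knockout arrays, against 37413 ± 8452 on those of the wild type (SD, n = 3 each). Signals are MAS5 signals, linear array intensities that the authors had scaled to a common level. The defining markers of the gland were present, with 5 of 5 chromaffin and 6 of 6 cortex markers on the array above the low-signal filter. Knockout arrays 2 and 3 stood apart from the other arrays. Their summed signals of 7 skeletal muscle markers were 62785 and 28237, against 2568 on knockout array 1 and 2354 to 2751 on the wild-type arrays. Acta1 gave the largest part, at 32131 and 13869. Ckm alone of the 7 was not higher on these arrays, at 553 and 651, against 762 on knockout array 1 and 636 to 818 in wild type. Of the 7, 4 were tested and limma called 0. On knockout arrays 2 and 3 the ratios of 3′ to 5′ Gapdh signal, a sign of RNA or cRNA integrity, were 1.30 and 1.29, against 0.831 on knockout array 1 and 0.762 to 0.806 on the wild-type arrays. Results that may rest on these arrays are also given with only knockout array 1 set against the wild type.

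Among the 8 genes, Rgs2 and Dusp1 had higher and Dusp6 (93285_at) lower values on every knockout array, and the other probe sets overlapped between genotypes. Of the 13 probe sets, 8 of 7 genes were above the low-signal filter, a mean signal of about 583, and entered the limma fit over 7453 probe sets. In that fit 1 passed, higher in the knockout, at a Benjamini-Hochberg adjusted p under 0.05, where 0.443% of all tested probe sets passed, 0.161% higher and 0.282% lower. The genotypes did not overlap on 3 of the 8, against 16.4% of all tested probe sets. On 2 of these all knockout arrays lay above all wild-type arrays, against 7.55% of all, and on 1 all lay below, against 8.83%. On 5 the groups overlapped. These counts and calls describe the 8 genes and test nothing, since the genes were chosen on this contrast. In whole glands, fewer cells of a type and less RNA per cell cannot be told apart.

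**Figure D1:**
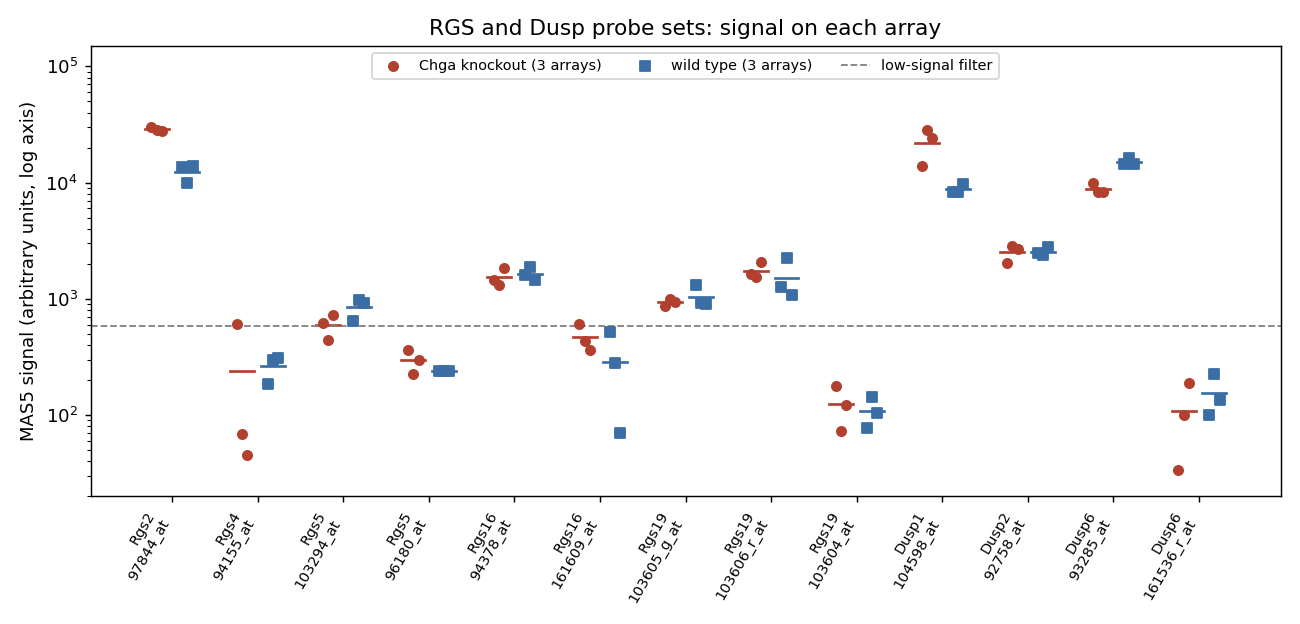
MAS5 signal (log axis) of the 13 probe sets of the 8 genes on the 3 knockout arrays (red circles) and the 3 wild-type arrays (blue squares), with a bar at each group's mean and a dashed line at the low-signal filter. Rgs2 and Dusp1 lie higher and Dusp6 (93285_at) lower on every knockout array, and 5 probe sets have mean log2 signals under the filter.

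Rgs2 encodes an RGS protein that acts mainly on the Gq class of alpha subunits. Its probe set read 29898, 28291 and 28084 on knockout arrays 1 to 3, against 13644, 9942 and 13765 on the wild-type arrays. All knockout arrays lay above all wild-type arrays, by at least 14319 signal units. The knockout arrays were close together, with an SD of 3.45% of the mean, against 17.5% among the wild-type arrays. The means were 28757 ± 993 in knockout and 12450 ± 2173 in wild-type glands (SD, n = 3 each). This was a 2.33-fold higher level, or a log2 change of 1.22 ± 0.15 (SE), the 38th highest among the 7453 probe sets. With knockout array 1 alone, where the spread comes from the wild-type arrays only, the log2 change was 1.28 ± 0.23 and did not pass. The call was also lost without knockout array 3, where the log2 change was 1.24, without the variance trend in the fit and with the Gapdh ratio as a covariate.

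The remaining RGS genes showed no separation by genotype. Rgs4, which acts on Gi and Gq subunits and is known from neurons, lay under the filter. Its probe set read 608, 68.3 and 45.4 on knockout arrays 1 to 3, against 184, 299.6 and 307 on the wild-type arrays. Knockout array 1 was thus the highest of the 6 arrays and the other knockout arrays were the lowest. The mean signals were 241 ± 319 in knockout and 264 ± 69.0 in wild-type glands (SD, n = 3 each), and signals this dim cannot be told from background here.

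Rgs5, known as a marker of pericytes and vascular smooth muscle, was read by 2 probe sets, of which 1 was under the filter. The brighter, 103294_at, read 618, 444 and 732 in knockout, against 643, 982 and 919 in wild-type glands, a log2 change of -0.50 ± 0.32. The dimmer, 96180_at, which was not tested, read 359.6, 228 and 299.5 in knockout, against 237, 242 and 238 in wild-type glands, a difference of mean log2 signals of 0.27 ± 0.39. Both overlapped between the genotypes. Of 8 pericyte and smooth muscle markers listed, 7 were on the array and 5 were tested. Those 5 had higher values in the knockout, with a median log2 change of 0.30, and limma called 0 of them, also at an unadjusted p under 0.05. The summed signal of the 7, Myh11 and Cnn1 under the filter included, was 8182 to 11715 on the knockout and 7280 to 9424 on the wild-type arrays. The part of these cells in the Rgs5 values was not tested.

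Rgs16, an RGS gene that many stimuli induce, read 1463.5, 1310.15 and 1841 in knockout, against 1595, 1864 and 1454 in wild-type glands on its brighter probe set. The log2 change was -0.10 ± 0.21. On its dimmer probe set, under the filter, the signals were 609, 437 and 363 in knockout, against 514, 282 and 70.2 in wild-type glands. That probe set had a difference of mean log2 signals of 0.99 ± 0.64, and its lowest signal was the wild-type array at 70.2.

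Rgs19, also named GAIP, acts on Gi subunits. It was read by 3 probe sets, of which 103606_r_at gave 1642, 1549 and 2065 in knockout, against 1263, 2228 and 1081 in wild-type glands. Its log2 change was 0.26 ± 0.28. The probe set 103605_g_at gave 862, 993 and 948 in knockout, against 1316, 915 and 909 in wild-type glands, a log2 change of -0.14 ± 0.24. The signs differed and both changes were smaller than their standard errors. The third, 103604_at, was dim, at 73.5 to 179 in knockout and 77.6 to 144 in wild-type glands.

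Dusp1 encodes MKP-1, a nuclear phosphatase of the p38, JNK and ERK kinases that is transcribed as an early gene after many stimuli, ACTH on adrenocortical cells and glucocorticoids among them. Its probe set read 13854, 28151 and 24265 on knockout arrays 1 to 3, against 8246, 8339 and 9662 on the wild-type arrays. Every knockout array exceeded every wild-type array, but knockout array 1 was far below the other knockout arrays. The means were 22090 ± 7392 in knockout and 8749 ± 792 in wild-type glands (SD, n = 3 each), and the SD was 33.5% of the mean in the knockout against 9.05% in the wild type. The log2 change of 1.28 ± 0.24 stood for a 2.42-fold higher level, the 33rd highest of all tested probe sets, and did not pass the threshold. It passed without knockout array 1, at 1.58. With knockout array 1 alone the log2 change was 0.67 ± 0.19, and with the Gapdh ratio as a covariate it was 0.55.

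Dusp6 encodes MKP-3, a cytoplasmic phosphatase that prefers ERK and whose transcription is known to follow ERK activity. Its bright probe set read 10015, 8345 and 8224 on knockout arrays 1 to 3, against 14422, 16447 and 14515 on the wild-type arrays. All knockout arrays lay below all wild-type arrays, with little spread in either group. The means were 8861 ± 1001 in knockout and 15128 ± 1143 in wild-type glands (SD, n = 3 each). The log2 change was -0.77 ± 0.14, a level 1.71-fold lower in the knockout, the 206th lowest of all tested probe sets. It did not pass the threshold, although it passed without knockout array 1, at -0.86. With knockout array 1 alone the log2 change was -0.59 ± 0.18. The second probe set, 161536_r_at, was under the filter, at 33.7, 101 and 189 in knockout and 99.6, 226 and 135 in wild-type glands, and its groups overlapped.

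Dusp2 encodes PAC-1, a nuclear phosphatase known mainly from activated leukocytes. It read 2021, 2861 and 2667 on knockout arrays 1 to 3, against 2486, 2364 and 2781 on the wild-type arrays. The genotypes overlapped, with a log2 change of -0.03 ± 0.18. With knockout array 1 alone the value was -0.33 ± 0.24. Of 7 lymphocyte markers, 5 were on the array and 0 of these were above the filter, with summed signals of 1419 to 1635 on the knockout and 934 to 1329 on the wild-type arrays.

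**Figure D2:**
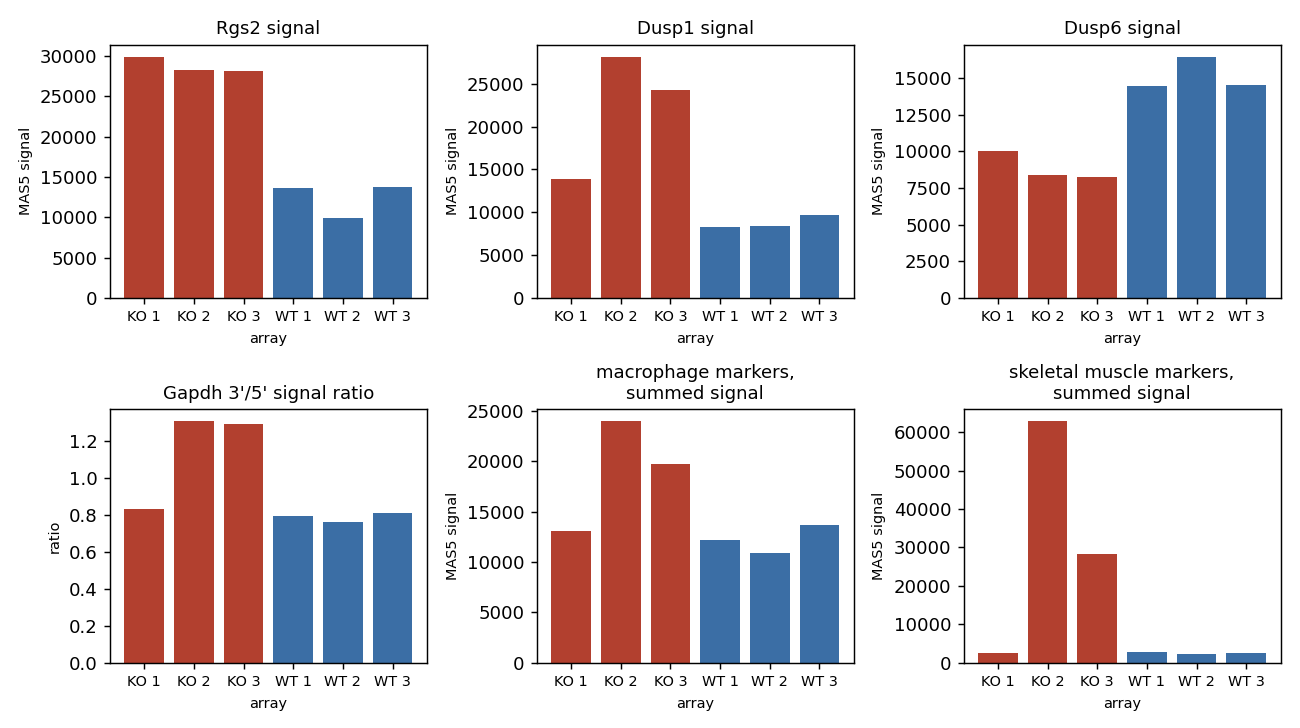
Signals of Rgs2, Dusp1 and Dusp6, the 3′ to 5′ Gapdh signal ratio and the summed signals of 7 macrophage and 7 skeletal muscle markers on each array, knockout arrays in red and wild-type arrays in blue, all axes from 0. Dusp1, the Gapdh ratio and both marker sums are higher on knockout arrays 2 and 3 than on knockout array 1, while Rgs2 is nearly level over the knockout arrays.

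The Dusp1 signal was ordered over the knockout arrays like several other measures. The summed macrophage markers were 13046, 23952 and 19706 on knockout arrays 1 to 3, against 10877 to 13699 on the wild-type arrays. All 7 macrophage markers were on the array, 6 were tested and 0 of them passed in limma (2 at an unadjusted p under 0.05, as were 11.3% of all tested probe sets), with a median log2 change of 0.71, while Adgre1 was under the filter. Among the tested ones Mpeg1 went against the order of the sum, at 2880, 2204 and 2639 on knockout arrays 1 to 3. Adipocyte markers, 4 of 6 on the array and all 4 tested, summed to 28067, 47146 and 44796 on knockout arrays 1 to 3, against 22341 to 38620 on the wild-type arrays. Most of that sum came from Adipoq, at 18419, 32112 and 31932 on the knockout arrays. Of the 4 markers 3 had higher values in the knockout and 1, Retn, a lower one (log2 change -0.83). Endothelial markers, all 6 of them tested, summed to 24579, 29469 and 28401 on the knockout arrays, each above the 19308 to 22235 of the wild-type arrays. Eng gave the largest part, at 12747, 15045 and 13681, while Kdr went against the order, at 3268, 2262 and 3971. Taken singly, 2 of the 6 had all knockout arrays above all wild-type arrays, against 7.55% of all tested probe sets. The median log2 change of the endothelial markers was 0.43, and that of the adipocyte markers 0.52. In limma 0 markers of these 2 lists passed, with 1 of each at an unadjusted p under 0.05. The order of the sums was not particular to these lists. Chromaffin markers summed to 191924, 204481 and 195497 on knockout arrays 1 to 3, against 161741 to 178917 on the wild-type arrays. That sum followed Chgb, its brightest gene, at 93585, 120199 and 98209 on the knockout arrays. Pnmt went against the order, at 46550, 29498 and 33268, and Th, Scg2 and Ddc were highest on knockout array 3. The summed pericyte and smooth muscle markers also had the order of Dusp1, at 8182, 11715 and 11447 on the knockout arrays. Cortex markers did not, at 449213, 426238 and 380631. The part of these cell types in the Dusp1, Rgs2 and Dusp6 values was not tested. With the Gapdh ratio as a covariate the log2 change of Rgs2 was 1.25 and that of Dusp6 -0.55.

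**Figure D3:**
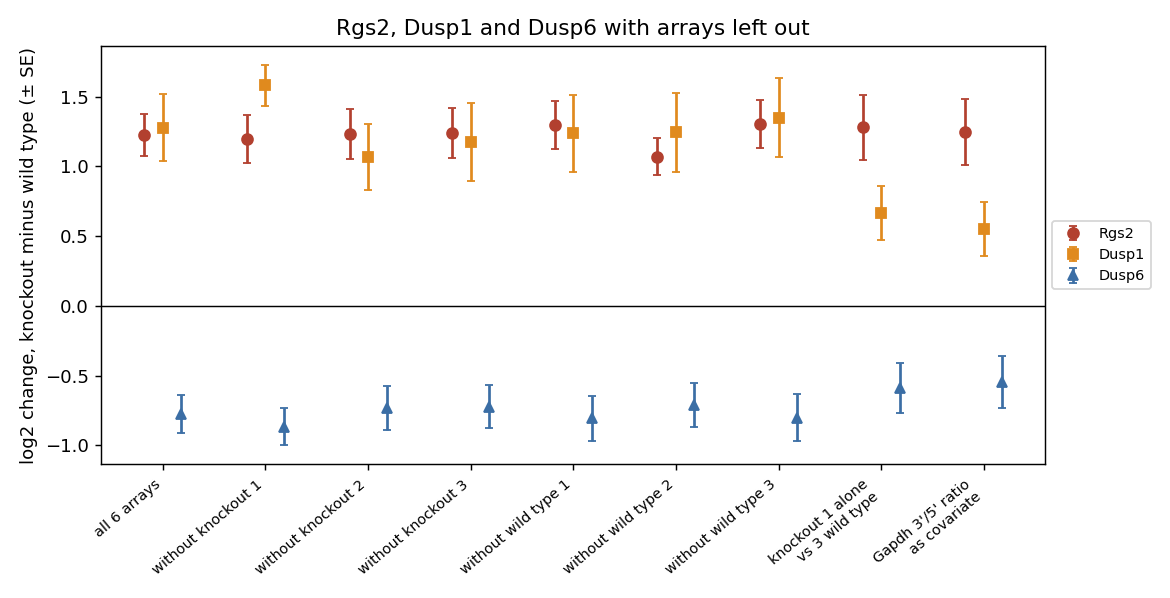
Log2 change (knockout minus wild type, ± SE) of Rgs2, Dusp1 and Dusp6 with all 6 arrays, with each array left out, with knockout array 1 alone and with the Gapdh ratio as a covariate. Rgs2 stays between 1.07 and 1.30 and Dusp6 between -0.86 and -0.55, while Dusp1 ranges from 0.55 to 1.58.

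The other RGS and Dusp genes are those left after the 8 were picked, and they were tested in the same fit. Of 20 probe sets of 14 further genes on the array, 11 probe sets of 10 genes were above the filter and limma called 0 of them, with 2 at an unadjusted p under 0.05, where 11.3% of all 7453 tested probe sets were. On both of these all knockout arrays lay below all wild-type arrays, as on 8.83% of all tested probe sets. Few Dusp genes were covered. Of 7 further MAP kinase phosphatase genes listed, 3 were on the array and 1, Dusp16, was tested. Of 14 atypical Dusp genes listed, 3 were on the array and all 3 were tested. Dusp16, which encodes a phosphatase that prefers JNK and p38, read 3177, 1304 and 1835 in knockout, against 4556, 3507 and 3392 in wild-type glands (log2 change -0.94 ± 0.30, limma adjusted p = 0.32). It passed without knockout array 1, on which its signal of 3177 was close to the lowest wild-type signal of 3392. Dusp19, an atypical member of the family, read 1614, 1471 and 1543 in knockout, against 2312, 2134 and 2535 in wild-type glands (log2 change -0.59 ± 0.17, limma adjusted p = 0.27). Atypical Dusp11 and Dusp12 had log2 changes of 0.25 and 0.17. The 6 other RGS genes tested had a median log2 change of 0.10, against 0.00 over all 5663 tested genes, and ranged between -0.24 for Rgs10 and 0.35 for Rgs11. Rgs3, Rgs7 and Rgs8 had values of 0.21, 0.23 and -0.16, and Rgs14 was at -0.01.

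**Figure D4:**
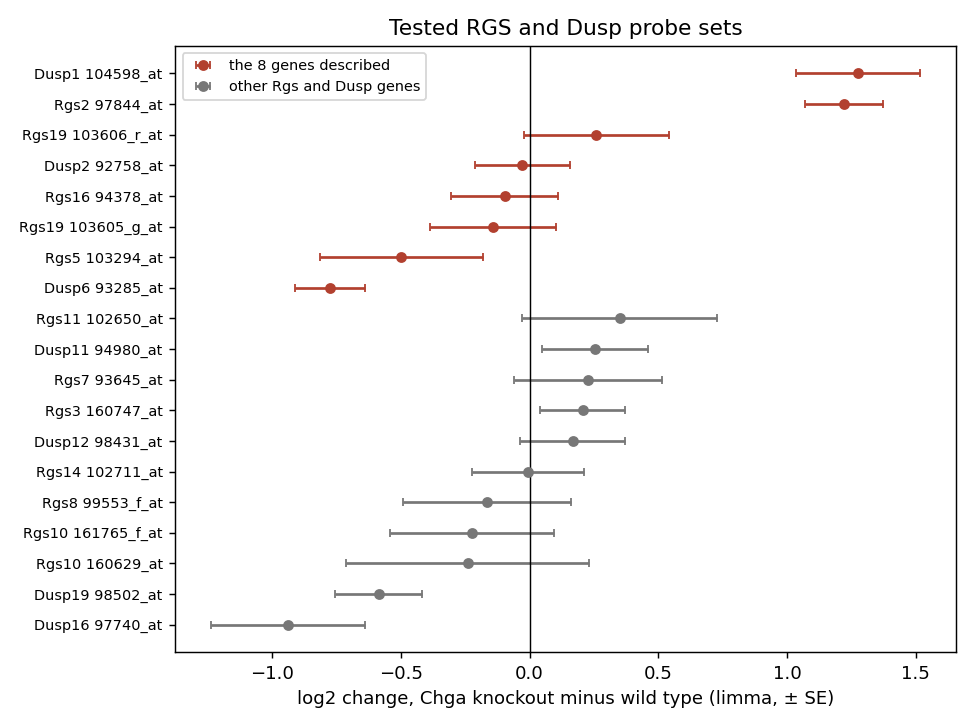
Log2 change (knockout minus wild type, ± SE) of the 8 tested probe sets of the described genes (red) and of the 11 tested probe sets of other Rgs and Dusp genes (grey). Dusp1 and Rgs2 lie above 1.2, and Dusp16, Dusp6 and Dusp19 have the lowest values.

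Other inhibitors that act on the route from growth factor receptors to ERK did not pass. Of 10 listed genes, 4 were on the array and 3 were tested. Errfi1, an inhibitor of the epidermal growth factor receptor family, read 8110, 5952 and 8535 in knockout, against 5752, 3713 and 5717 in wild-type glands (log2 change 0.58 ± 0.22, limma adjusted p = 0.39). The Sprouty gene Spry4 had a log2 change of -0.27 and the Spred gene Spred2 one of -0.19, with limma adjusted p values of 0.65 and 0.79. Errfi1 alone of these 3 had an unadjusted p under 0.05, which 11.3% of all tested probe sets had.

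The proteins that RGS and MAP kinase phosphatases act on also had no call. Of 12 G protein alpha subunit genes, 10 were tested, 0 passed in limma and 3 had an unadjusted p under 0.05, against 11.3% of all tested probe sets. Gnai1 had a log2 change of -0.74, Gnai2 of 0.34 and Gnai3 of 0.31, with limma adjusted p values of 0.39, 0.40 and 0.40; all 3 encode inhibitory Gi subunits. Of the Gq class, Gna14 was at -0.64, Gnaq at -0.42 and Gna11 at 0.10, while Gna15 was under the filter. The 10 genes had a median of 0.04.

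Of 23 genes of the MAP kinase cascade, 12 were tested, 0 passed and 1 had an unadjusted p under 0.05 (11.3% of all tested probe sets), with a median log2 change of 0.00. That gene was Map2k4, which encodes an activator of JNK, at -0.61 (limma adjusted p = 0.42). The JNK gene Mapk9 was at -0.49, Araf at -0.25 and the p38 gene Mapk14 at -0.20. Of 30 G protein-coupled receptor genes of the adrenal, 7 were tested and 0 passed in limma, also at an unadjusted p under 0.05. Mc2r, the ACTH receptor, was at -0.07. The values with the smallest p were those of Agtr2 (0.49), S1pr2 (-0.31), Adra2c (-0.22) and Adcyap1r1 (-0.28). Agtr2 was the only angiotensin receptor gene of the list with a probe set assigned to it alone. Of the receptor kinases and arrestins 3 were tested, 0 passed and 1 had an unadjusted p under 0.05 (11.3% of all tested probe sets), Grk5 at 0.65 (limma adjusted p = 0.41), with Arrb1 at 0.21 and Grk6 at 0.12.

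**Figure D5:**
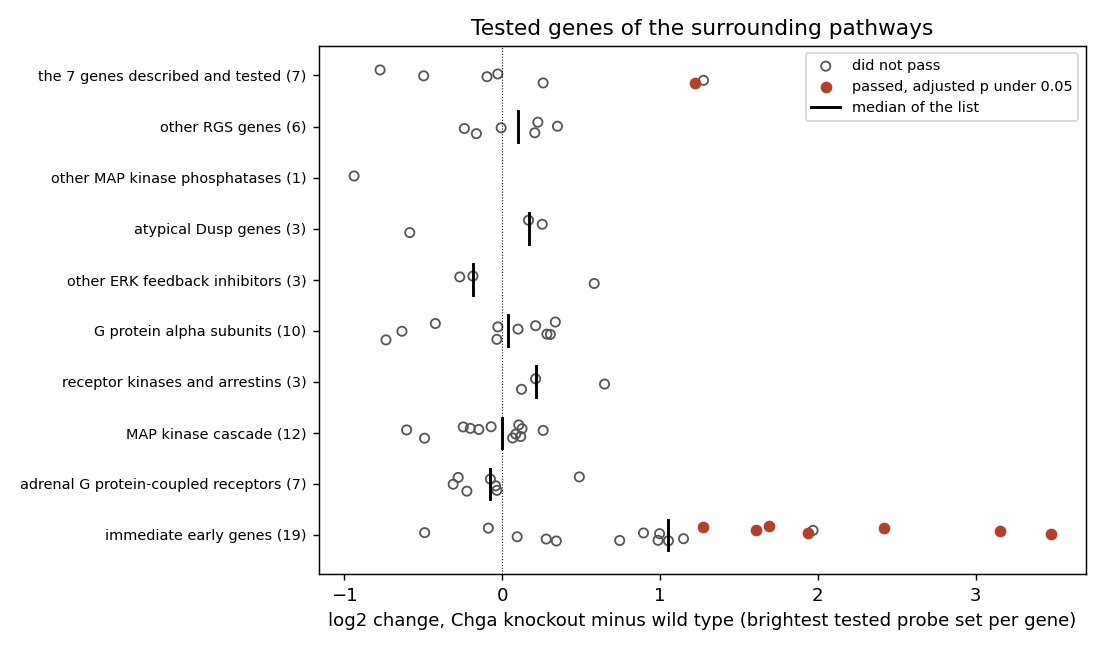
Log2 change (knockout minus wild type) of the brightest tested probe set of each gene, by list, with the number tested in brackets; filled red points passed the limma threshold and black bars are list medians. Calls outside the described genes lie in the immediate early list, whose median is 1.05, while the medians of the other plotted lists with more than 1 gene lie between -0.19 and 0.21.

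Immediate early genes, which the same pathways switch on, were examined in the same fit, and their relation to the inhibitors was not tested. Of 24 listed, 19 were tested, 7 rose, 0 fell and 12 did not pass, where 0.161% of all tested probe sets were called higher, with a median log2 change of 1.05 against 0.00 over all tested genes. The 7 were Junb, Fos, Ier3, Egr1, Btg2, Klf4 and Atf3. With knockout array 1 alone 3 passed and the median was 1.28. These genes were known to be higher from earlier results on the same arrays.

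The genes whose pattern over the 6 arrays was most like that of each inhibitor were named by Pearson's r of log2 signals, as a description of 6 arrays that share the genotype difference. For Rgs2 these were Pim3 (r = 0.994), Gadd45b (0.989) and Ahnak (0.987), of which Pim3 and Gadd45b passed the threshold. Dusp1 was most like Slc6a8 (0.992), Pltp (0.990) and Gabarap (0.989), none of which passed. Slc6a8, the creatine transporter gene, read 2838, 4763 and 4461 in knockout, against 1524, 1788 and 1920 in wild-type glands, with the same lower knockout array 1 as Dusp1. Dusp6 was most like Mrpl12 (0.994), Frrs1 (0.990) and Hsd17b7 (0.990), a gene of sterol synthesis that fell. The overlapping genes were nearest to Dhx9, Pold3 and Cdc25c for Rgs5, to Dhx15, Mettl7a1 and Gpx1 for Rgs16, to Uxs1, Etl4 and Apoc4 for Rgs19, and to Ubr7, Ift88 and Sh3gl1 for Dusp2, with r between 0.968 and 0.994.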

How the data were processed

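Adrenal RNA was measured on single-colour Affymetrix arrays, each read as 1 mouse. The deposited values are linear intensities, 1 for each probe set. The authors computed them with MAS5 according to the submitters' processing notes. Version and scaling target were not found in the labels. The trimmed mean, without the highest and lowest 2%, was 2501 on each array, so nothing was normalized again. After 66 control probe sets were left out, 10833 of 12422 had 1 symbol, 396 several and 1193 none in the platform annotation. Symbols were updated by Entrez identifier with RefSeq genes of GRCm38, where 16 did not match. That build supplied the promoter sequences for all 8 genes (10 windows, 3 of them of Rgs19), and the array files name no build. Values were tested as log2(signal + 16), which understates changes of dim genes. Probe sets under the 40th percentile of mean log2 signal were left out. limma 3.58.1 in R 4.3.3 (lmFit, eBayes with trend) compared knockout with wild type, with Benjamini-Hochberg adjustment over 7453 probe sets and a threshold of 0.05. The fit was tested on simulated data. Errors are SD over arrays or SE of the fit, and the number of arrays limits the precision.

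The genes, lists and markers were chosen with earlier results of these arrays known. Genes named outside the 8 were those called in each list, or else up to 4 with the smallest unadjusted p, and the 3 of highest r to each tested gene. Others (Rgs8, Rgs14, Gnaq, Gna11, Gna15, Mc2r and markers named singly, those under the filter included) were named after their values were seen. Each gene was represented by its brightest tested probe set. Alternatives were other pseudocounts (1 and 64), filters, scalings, variance settings, array weights, the replicate block, arrays left out, a covariate for the Gapdh ratio and other thresholds.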

Additional observations from a re-analysis of the deposited data

How the results depend on the processing

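Over 19 alternatives the log2 change of Rgs2 stayed between 1.07 and 1.30 and passed in 15, that of Dusp1 lay between 0.55 and 1.58 and passed in 3, and that of Dusp6 lay between -0.86 and -0.55 and passed in 3. None of the 3 changed sign. Those of Rgs16, Rgs19 (103605_g_at) and Dusp2, which were not called, changed sign in 1, 1 and 2 alternatives. The 33 probe sets called over the whole array became 17 without the variance trend, 57 with the replicate block, 13 with knockout array 1 alone, 12 with the Gapdh ratio as a covariate, and 55 and 17 at thresholds of 0.1 and 0.01. They became 141 without knockout array 1, 15 without knockout array 3, and 17 and 19 without wild-type arrays 2 and 3, so that leaving out an array gave 15 to 141. The 1 called probe set of the 8 genes, that of Rgs2, became 0 without the variance trend, 0 with knockout array 1 alone and 0 with the covariate, and 0 to 3 with an array left out. It was joined by Dusp6 with a filter at the 60th percentile (2 called), by Dusp1 with the replicate block (2), and by both with array weights (3), without knockout array 1 (3) and at a threshold of 0.1 (3). Leaving out an array gave 0 to 1 calls among other RGS and Dusp probe sets, the 1 being Dusp16 without knockout array 1. The 7 immediate early genes called became 3 with knockout array 1 alone and 3 with the covariate, alternatives chosen after seeing the data. Some of these settings hold fewer arrays or probe sets, and the cause of the differences was not tested. Deviations of same-numbered arrays from their group means correlated at 0.255, -0.0352 and -0.0389 over tested probe sets. Those of differently numbered arrays correlated at -0.181 to 0.250. These values do not settle whether replicate numbers pair the arrays. Without detection calls, the 5 probe sets under the filter give signals that cannot be told from background here.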
